A study of Homo sapiens with 6 samples.

Results

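The genes described here are 10 aldehyde and alcohol dehydrogenases, taken by symbol from the 61541 Ensembl genes of the deposited counts, and all 10 were found. They are the aldehyde dehydrogenases ALDH1A1, ALDH1B1, ALDH2, ALDH3A1, ALDH3A2, ALDH7A1 and ALDH9A1, and the alcohol dehydrogenases ADH4, ADH5 and ADH6. RNA was sequenced from luciferases-expressing HepG2 cells, a hepatoblastoma line in which both groups carry an ARE-driven SLR3 luciferase and a constitutive ELuc luciferase on an artificial chromosome. A group of cells was exposed to sedanolide, a phthalide of celery, at 100 μM for 24 h (n = 3 libraries), and the comparison group consists of cells labelled control (n = 3 libraries). Sedanolide was kept as a stock in DMSO, and the labels do not say what the control cells received. The labels do not say either whether the libraries of a group come from separate cultures, so that the p-values measure the spread between these libraries, which may be technical.

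Alcohol dehydrogenases oxidize alcohols to aldehydes, and aldehyde dehydrogenases oxidize aldehydes to carboxylic acids, with NAD or NADP as the electron acceptor. In hepatocytes they clear ethanol and acetaldehyde, the aldehydes of lipid peroxidation and formaldehyde, and they take part in the synthesis of retinoic acid, carnitine and betaine. Some aldehyde dehydrogenases are known as markers of stem-like tumor cells, and ALDH3A1 is known as a gene induced through the aryl hydrocarbon receptor, a xenobiotic sensor. The question put to the libraries is whether the expression of these enzymes differed between sedanolide-treated and control cells.

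None of the 10 genes was past both thresholds of the study, which are 0.05 for the FDR and 1.5 for the fold change. In the main test on counts, ALDH1A1, the most abundant of them per transcript length, was the nearest to a difference. It had 1.32-fold higher expression in sedanolide-treated cells, and its 3 sedanolide libraries lay above its 3 control libraries. ADH4 and ADH6, which are neighbors on chromosome 4, had lower means in sedanolide-treated cells, but their groups overlapped in normalized counts. Per transcript length (TPM) the groups of both did not overlap, where 17.2% of all genes on that scale had groups apart. With the split of the libraries described below as a term, ADH6 was past the FDR threshold, as were 4.11% of all genes. Its difference was below 1.5-fold there. ALDH2, ALDH7A1, ALDH9A1 and ADH5 had 95% intervals that lay inside 1.5-fold in either direction. ALDH1B1 had the widest 95% interval of the tested genes, and ALDH3A1 was too low to be tested.

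The libraries held 16420258 to 26714853 expected counts. Component 1 of a principal component analysis held 56.1% of the variance in log2 CPM, the counts scaled to the library size, and did not follow the treatment. Control 1, control 2 and sedanolide 3 lay on the first side, with 1.43% to 2.15% of counts in mitochondrial genes, and control 3, sedanolide 1 and sedanolide 2 on the second side, with 4.23% to 5.22%. The labels give no batch, so the values within each side are given below beside the pooled ones. Each value within a side has a single library in one of the conditions. The 9 hepatocyte markers examined were all detected, with a summed level of 29889 to 45924 CPM in control and 22074 to 38878 CPM in sedanolide libraries. Log2 fold changes of sedanolide over control were below 0 for 8 of the 9, with a median of -0.43, and 0 were past both thresholds. For 3 of the 9 all sedanolide libraries lay below all control libraries, where 18.3% of all genes tested had groups apart in either direction. Of 5 fibroblast markers, COL1A2, DCN and LUM were at 0 in all libraries and the sum did not exceed 0.215 CPM, and of 4 endothelial markers, VWF and KDR were at 0 in all libraries, CDH5 had at most 3 counts and the sum of 3.89 to 5.29 CPM came from PECAM1. The 5 immune markers summed to 818 to 1331 CPM in control and 484 to 771 CPM in sedanolide libraries, nearly all of it from LYZ, whereas CD3E was at 0 and PTPRC had at most 3 counts in a library. CD68 was at 8.85 to 13.9 CPM in control and 14.2 to 14.7 CPM in sedanolide libraries, and CD14 at 2.94 to 3.82 and 1.43 to 2.85 CPM. The part of these markers in the results was not tested.

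The 10 genes lie on 6 chromosomes (GENCODE 44 on GRCh38). ADH5 (99070978 to 99088801), ADH4 (99123657 to 99157792) and ADH6 (99202638 to 99219537) are the first 3 of 7 alcohol dehydrogenase genes that lie on the minus strand of chromosome 4 within 364.5 kb. ADH1A, ADH1B, ADH1C and ADH7 follow in this order. ALDH3A2 (19648136 to 19685760, plus strand) and ALDH3A1 (19737984 to 19748943, minus strand) lie on chromosome 17 within 100.8 kb. ALDH1A1 (72900671 to 73080442, minus strand) and ALDH1B1 (38392702 to 38398661, plus strand) are both on chromosome 9. The canonical transcript of ALDH1B1 has 2 exons, whereas those of the other 9 genes have 9 to 18. ALDH2 is on chromosome 12 (111766887 to 111817532, plus strand), ALDH7A1 on chromosome 5 (126531200 to 126595362, minus strand) and ALDH9A1 on chromosome 1 (165662216 to 165698562, minus strand).

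The sequences upstream of the annotated starts are shown for 4 genes, since ALDH1A1, ADH4 and ADH6 had the largest differences within the library sides and ALDH1B1 the largest difference between the sides. Each run holds the 250 bases before the start on the strand of the gene, 5′ to 3′, from RefSeq (GRCh38.p14). They are chr9:72953054-72953303 for ALDH1A1 (minus strand), chr4:99144298-99144547 for ADH4 (minus strand), chr4:99219247-99219496 for ADH6 (minus strand) and chr9:38392452-38392701 for ALDH1B1 (plus strand). For ALDH1A1, ADH4 and ADH6 the RefSeq start lies inside the GENCODE span given above, which reaches further upstream than the printed run. Capitals mark the letters CCAAT and TATAA on either strand.
ALDH1A1: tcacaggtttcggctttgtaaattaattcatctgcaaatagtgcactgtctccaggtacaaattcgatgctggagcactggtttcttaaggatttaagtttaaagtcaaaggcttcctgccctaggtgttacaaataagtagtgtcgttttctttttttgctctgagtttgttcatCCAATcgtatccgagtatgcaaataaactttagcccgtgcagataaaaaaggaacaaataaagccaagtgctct
ADH4: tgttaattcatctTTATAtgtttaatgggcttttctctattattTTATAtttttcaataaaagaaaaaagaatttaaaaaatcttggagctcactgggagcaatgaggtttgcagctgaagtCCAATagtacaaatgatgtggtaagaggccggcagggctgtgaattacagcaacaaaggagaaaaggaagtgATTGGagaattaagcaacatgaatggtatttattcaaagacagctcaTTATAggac
ADH6: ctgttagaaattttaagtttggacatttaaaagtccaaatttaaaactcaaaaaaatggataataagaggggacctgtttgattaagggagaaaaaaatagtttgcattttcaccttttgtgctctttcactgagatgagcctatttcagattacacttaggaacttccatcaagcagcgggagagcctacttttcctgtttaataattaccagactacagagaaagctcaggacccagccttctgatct
ALDH1B1: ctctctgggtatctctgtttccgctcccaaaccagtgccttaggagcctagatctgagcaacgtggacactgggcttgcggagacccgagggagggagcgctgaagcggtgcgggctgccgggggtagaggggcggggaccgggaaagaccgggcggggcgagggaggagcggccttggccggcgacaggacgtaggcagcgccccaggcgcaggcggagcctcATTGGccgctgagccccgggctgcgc

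Of the 10 genes, 8 had an entry in this table, and ALDH2 and ALDH3A1 did not. The upstream windows of ADH4, ADH6 and ALDH1A1 were the poorest in G and C, with 34.0%, 36.4% and 38.4%, against 55.6% to 70.4% in the other 5. ALDH1A1 held CCAAT on the gene strand 74 bases upstream of the start, and ADH4 held it 128 bases upstream. CCAAT on either strand was found in 4 of the 8 windows and in 32.0% of all 35116 windows of the table. TATAA on either strand was found in ADH4 alone among the 8, and in 18.9% of all windows. The core of the antioxidant response element, TGACNNNGC, was searched on both strands and was in 0 of the 8 windows, against 10.9% of all windows. The core of the response element of the aryl hydrocarbon receptor, GCGTG, was in the window of ADH5 alone, against 32.2% of all windows. No overlap between these motifs occurred in the 8 windows, and a match or its absence describes only the letters of these 250 bases.

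ALDH1A1 (ENSG00000165092) encodes the cytosolic retinaldehyde dehydrogenase, which makes retinoic acid from retinal. Its normalized expression was 488, 519 and 572 CPM in controls 1 to 3 and 697, 721 and 671 CPM in sedanolide 1 to 3. The groups did not overlap, with sedanolide 3, the lowest treated library, above control 3, the highest control. The means were 526 ± 42.1 and 696 ± 24.7 CPM for control and treated cells (SD, n = 3). The log2 fold change (log2FC, sedanolide over control) was 0.40, with a 95% interval from 0.14 to 0.67. The difference was not past the FDR threshold in edgeR's quasi-likelihood test (adjusted p = 0.224 with Benjamini-Hochberg adjustment, unadjusted p = 0.00868), whereas with DESeq2 the adjusted p was 0.0147 at the same fold change. ALDH1A1 was the 1 gene of the 9 tested with an unadjusted p under 0.05 and also the 1 gene whose groups did not overlap in CPM, 11.1% of the genes in both cases. Among all 14104 genes and reporters tested, 11.9% had an unadjusted p under 0.05 and 18.3% had groups that did not overlap, so that neither share of the dehydrogenases stood above that of all genes. Within the first side of component 1 the log2 fold change of ALDH1A1 was 0.42 and within the second it was 0.31. With single libraries left out, it stayed between 0.34 and 0.47.

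**Figure D1:**
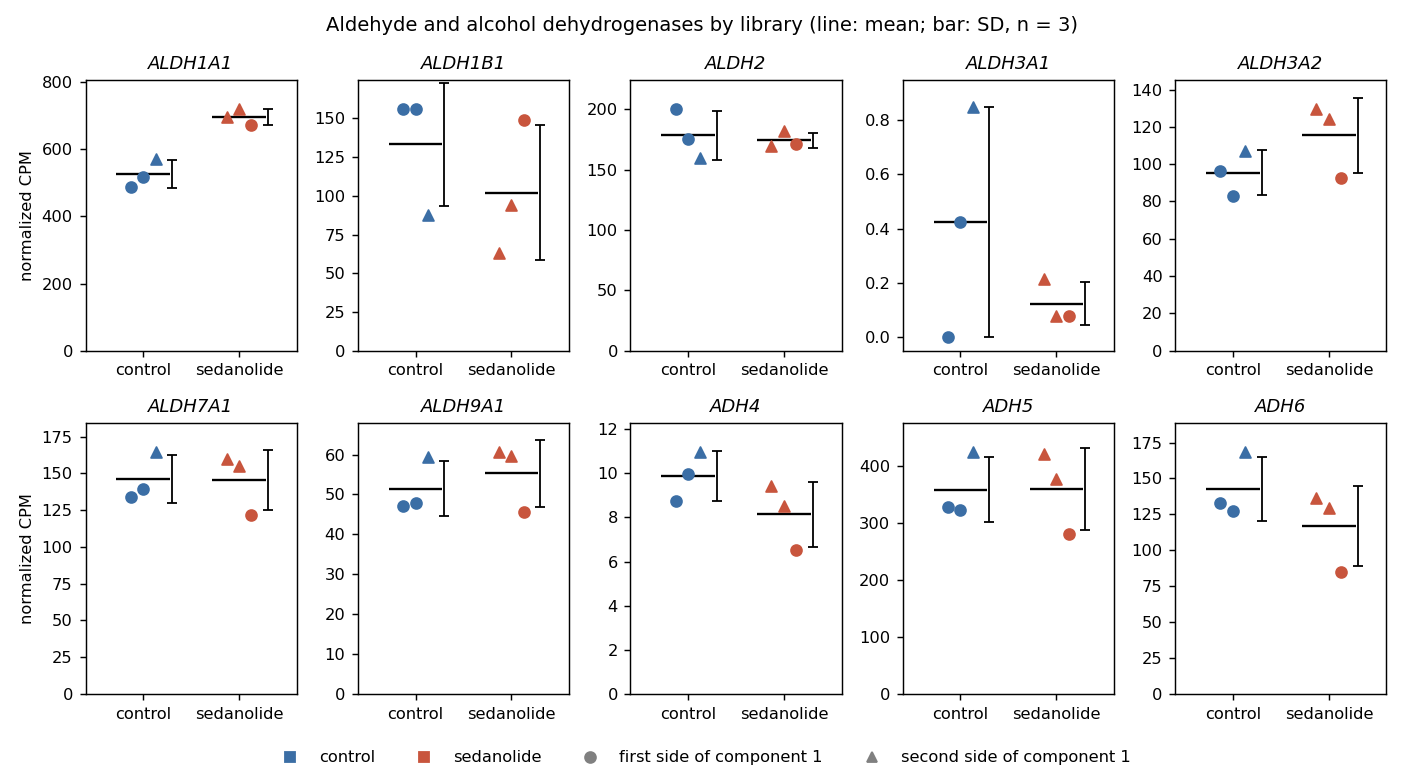
Normalized CPM of the 10 dehydrogenase genes in each control (blue) and sedanolide (red) library, with the mean as a line and the SD as a bar (n = 3), and circles and triangles for the libraries on the first and the second side of component 1. ALDH1A1 is the only gene in which all sedanolide libraries lie above all control libraries, and in ALDH1B1 the 3 libraries of the first side lie above the 3 of the second.

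Neither of the mitochondrial enzymes of acetaldehyde oxidation, ALDH2 and ALDH1B1, differed beyond the spread between libraries. ALDH2 (ENSG00000111275), the main acetaldehyde dehydrogenase of the liver, had 201, 175 and 160.1 CPM in controls 1 to 3 and 169.9, 182 and 171 CPM in sedanolide 1 to 3. The sedanolide libraries lay within the range of the control libraries. The log2 fold change was -0.04 with a 95% interval from -0.33 to 0.26 (adjusted p = 0.930 from edgeR), so that a change of 1.5-fold lay outside the interval. ALDH2 shares 680 exon bases with a protein-coding gene of the same strand (ENSG00000257767), whose counts came to 13.1% of those of ALDH2, and RSEM divides reads that match both. ALDH1B1 (ENSG00000137124) had 156 CPM in control 1, 156 in control 2 and 87.5 in control 3, and 63.4, 94.1 and 149 CPM in sedanolide 1 to 3. Here the high libraries were those of the first side of component 1, in both conditions. The log2 fold change was -0.38 with a 95% interval from -1.20 to 0.44 (adjusted p = 0.702 from edgeR), the widest interval of the 9 tested genes. It ranged from -0.76 without sedanolide 3 (adjusted p = 0.185) to -0.14 without sedanolide 1. Within the sides it was -0.07 and -0.15, and with the side as a term in the fit it was -0.11.

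The endoplasmic reticulum enzyme ALDH3A2 (ENSG00000072210) oxidizes long-chain fatty aldehydes. Its expression was 96.4, 82.7 and 107 CPM in controls 1 to 3 and 129.7, 124 and 92.5 CPM in sedanolide 1 to 3. Sedanolide 3 lay within the control range and the other two sedanolide libraries above it. The log2 fold change was 0.28 with a 95% interval from -0.13 to 0.68 (adjusted p = 0.578 from edgeR), and it was 0.05 within the first side and 0.25 within the second. The neighboring gene ALDH3A1 (ENSG00000108602), whose product oxidizes aromatic and medium-chain aldehydes, had 0, 10 and 15 counts in controls 1 to 3 and 4, 2 and 2 counts in sedanolide 1 to 3. It did not pass the filter on low counts and is not in the table of TPM. The groups overlapped because control 1 had no count, which allows up to 3 counts, and in the fit without the filter ALDH3A1 was not past both thresholds.

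ALDH7A1 and ALDH9A1 serve the catabolism of lysine and the synthesis of betaine and carnitine. ALDH7A1 (ENSG00000164904) had 134, 139 and 165 CPM in controls 1 to 3 and 159.7, 155 and 122 CPM in sedanolide 1 to 3, with means of 146 ± 16.3 and 145 ± 20.7 CPM (SD, n = 3). Its log2 fold change was -0.00 in 2 decimals (-0.0048) with a 95% interval from -0.36 to 0.35 (adjusted p = 0.992 from edgeR). ALDH9A1 (ENSG00000143149) had 47.1, 47.8 and 59.5 CPM in controls 1 to 3 and 60.6, 59.6 and 45.6 CPM in sedanolide 1 to 3. In both genes the 3 libraries of the second side were the highest, irrespective of the condition. The log2 fold change of ALDH9A1 was 0.10 with a 95% interval from -0.28 to 0.48 (adjusted p = 0.832 from edgeR).

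ADH5 (ENSG00000197894) encodes the class III alcohol dehydrogenase, which oxidizes the glutathione adduct of formaldehyde and reduces S-nitrosoglutathione. Its expression was 328, 323 and 425 CPM in controls 1 to 3 and 422, 378 and 281 CPM in sedanolide 1 to 3, and again the libraries of the second side were the highest. The log2 fold change was 0.01 with a 95% interval from -0.44 to 0.45 (adjusted p = 0.989 from edgeR). The sign depended on the processing, as the value was -0.15 with the side as a term and -0.04 with library size only as scaling.

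ADH4, the class II enzyme of the liver, which oxidizes ethanol and retinol, and ADH6, the class V enzyme, had lower means in sedanolide-treated cells. ADH4 (ENSG00000198099) had 8.72, 9.95 and 11.0 CPM in controls 1 to 3 and 9.41, 8.50 and 6.50 CPM in sedanolide 1 to 3, from 144 to 235 counts per library. ADH6 (ENSG00000172955) had 133, 127 and 168 CPM in controls 1 to 3 and 137, 129 and 85.2 CPM in sedanolide 1 to 3. Sedanolide 3 was the lowest library for both genes and control 3 was the highest. The log2 fold changes were -0.28 for ADH4 (95% interval from -0.71 to 0.14, adjusted p = 0.588) and -0.29 for ADH6 (from -0.78 to 0.21, adjusted p = 0.633, both from edgeR), and with single libraries left out they ranged from -0.40 (without sedanolide 1) to -0.14 (without sedanolide 3) and from -0.42 to -0.10 (without the same libraries). Within the sides the values were larger. For ADH4 they were -0.52 on the first side and -0.29 on the second, and for ADH6 -0.61 and -0.34. These values rest on sedanolide 3, the only sedanolide library of the first side, and on control 3, the only control of the second. With the side as a term, ADH6 had a log2FC of -0.47 (95% interval from -0.70 to -0.25) and an adjusted p of 0.0316 from edgeR, past the FDR threshold but not past 1.5-fold. ADH4 had -0.41 and an adjusted p of 0.125, and ALDH1A1 had 0.36 and 0.0517. The side was read from these same libraries, and the p-values of the fit do not account for that choice. In that fit 4.11% of all genes were past the FDR threshold alone, and 2.70% of all genes and 0 of the 9 dehydrogenases were past both. An unadjusted p under 0.05 was found for 3 of the 9 there, and for 19.5% of all genes. An antisense lncRNA shares 75 exon bases with ADH6, and its counts came to 0.654% of those of ADH6.

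**Figure D2:**
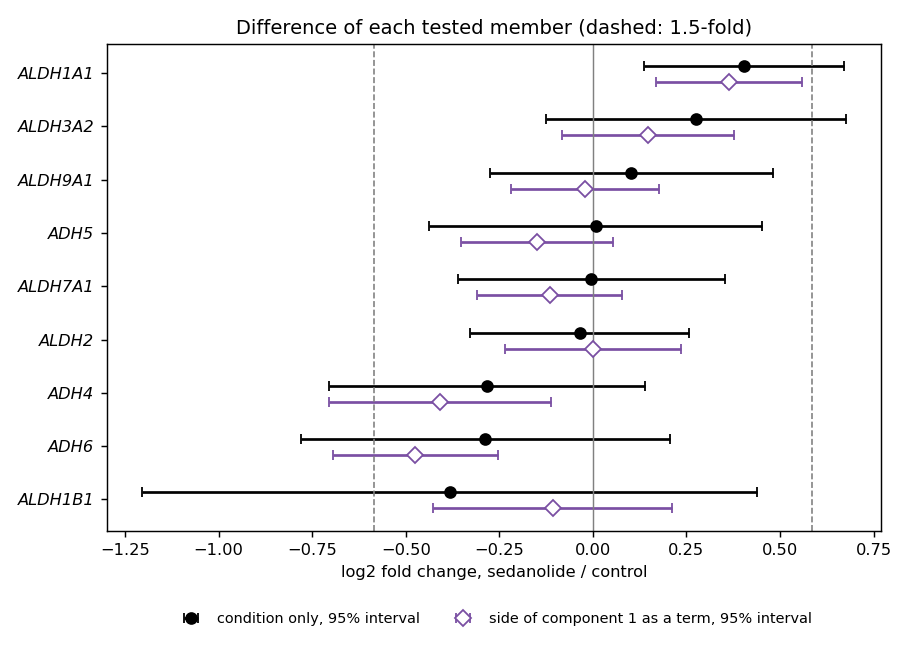
Log2 fold change of sedanolide over control with its 95% interval for the 9 tested dehydrogenases, with the condition as the only term (black) and with the side of component 1 as a further term (purple). Dashed lines mark 1.5-fold, and ALDH1A1 alone has a black interval that does not cross 0, from 0.14 to 0.67.

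At both thresholds, 0 of the 9 tested dehydrogenases were higher and 0 were lower, where 0.362% of all genes and reporters tested were higher and 0.312% were lower. DESeq2 on the same genes called 2.33% of all genes and also 0 of the 9, with 1 at an unadjusted p under 0.05 in either test. Of the 9 genes, 4 had log2 fold changes above 0 and 5 below, and their median was -0.00 (-0.0048), beside 0.01 (0.0057) for all genes tested.

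For ALDH1B1 the difference between the sides of component 1 was larger than that between the conditions. The same held for the other tested genes except ALDH1A1 and ADH4. Between the sides, the mean CPM of ALDH1B1 was 1.88-fold lower on the second side, a log2 ratio of -0.91. ALDH2 had a log2 ratio of -0.10. The other 7 genes were higher on the second side, with log2 ratios from 0.20 (ADH4) to 0.41 (ALDH3A2), where the median of all genes was 0.01. A difference between the sides as large as that of ALDH1B1 in either direction was found in 6.41% of all genes tested, and for the other 8 genes this share was 35.6% to 82.7%. The second side holds 2 sedanolide and 1 control libraries and the first side the reverse, so these ratios carry part of any difference between the conditions. As the mean of the ratios within control and within sedanolide-treated cells, the log2 ratio was -0.88 for ALDH1B1, 0.13 for ALDH1A1 and 0.32 to 0.51 for the other 6 genes that were higher on the second side. For ALDH2 this mean was -0.10, from ratios of opposite sign, -0.23 in control and 0.04 in sedanolide-treated cells. ALDH1B1 and ALDH2 also have the canonical transcripts richest in G and C of the 9 tested genes, 51.8% and 47.6%, against 40.6% to 45.4% in the other 7. The sides were read from all genes, these included, so that these ratios are a description, and the part of base composition in them was not tested.

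**Figure D3:**
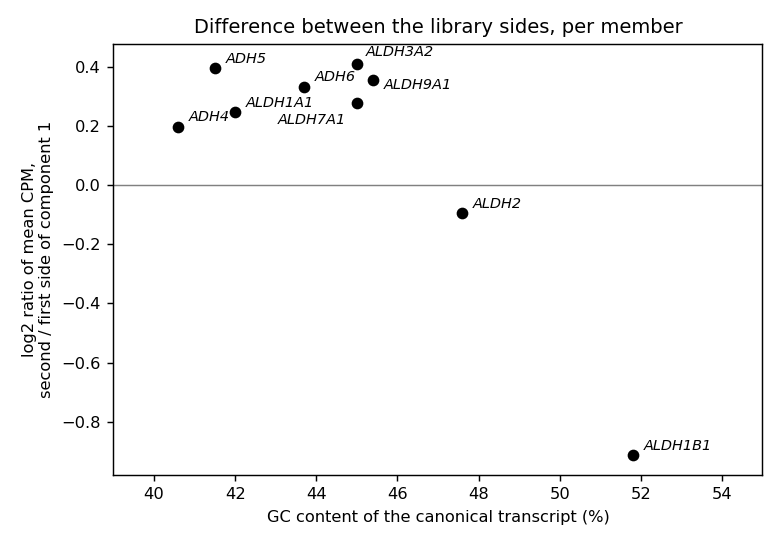
Log2 ratio of the mean normalized CPM on the second side of component 1 over that on the first, against the GC content of the canonical transcript, for the 9 tested dehydrogenases. ALDH1B1 stands apart at 51.8% GC and a ratio of -0.91, and the 7 genes at 40.6% to 45.4% GC lie between 0.20 and 0.41.

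Levels of different genes were compared per transcript length in the authors' table of log2(TPM + 1), which holds 9 of the 10 genes. In control cells the order by mean TPM was ALDH1A1 (414 ± 8.45), ADH5 (341 ± 57.0), ALDH7A1 (172 ± 14.5), ALDH2 (124 ± 22.3), ADH6 (89.6 ± 8.33), ALDH3A2 (81.9 ± 7.20), ALDH1B1 (69.3 ± 23.7), ALDH9A1 (34.3 ± 3.61) and ADH4 (8.33 ± 0.702), each with its SD (n = 3). ADH6 and ALDH3A2 overlapped in control libraries, as did ALDH3A2 and ALDH1B1, while the other neighbors in this order did not. ALDH1A1 and ADH5 were nearly equal in control 3, at 407.4 and 406.6 TPM. In sedanolide-treated cells ADH6 (66.0 ± 9.69) and ALDH3A2 (90.8 ± 12.6) stood in the reverse order, and the other ranks were as in control cells. The summed TPM of the 9 genes was 1335 ± 32.7 in control and 1344 ± 47.2 in sedanolide-treated cells (SD, n = 3), with ranges that overlapped. Of this sum, ALDH1A1 made up 29.8% to 31.8% in control libraries and 33.5% to 39.8% in sedanolide libraries.

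In this table the difference of ALDH1A1 in log2(TPM + 1) was 0.24, smaller than in normalized CPM (adjusted p = 0.460 from limma), and its groups again did not overlap, at 407 to 424 TPM in control and 456 to 513 TPM in sedanolide libraries. ADH4 and ADH6 also had groups that did not overlap on this scale, which makes 3 of the 9 genes, where 17.2% of all 11006 rows had such groups. ADH6 was at 84.3 to 99.2 TPM in control and 54.8 to 72.3 TPM in sedanolide libraries, a difference of -0.44 in log2(TPM + 1) (adjusted p = 0.325 from limma). ADH4 was at 7.52 to 8.76 TPM in control and 5.18 to 6.69 TPM in sedanolide libraries, a difference of -0.41 (adjusted p = 0.296 from limma). The median difference over all rows of the table was -0.07. At both thresholds limma called 0.554% of the rows and 0 of the 9 genes. In these bulk libraries, fewer cells that express a gene and less of its RNA per cell cannot be told apart.

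**Figure D4:**
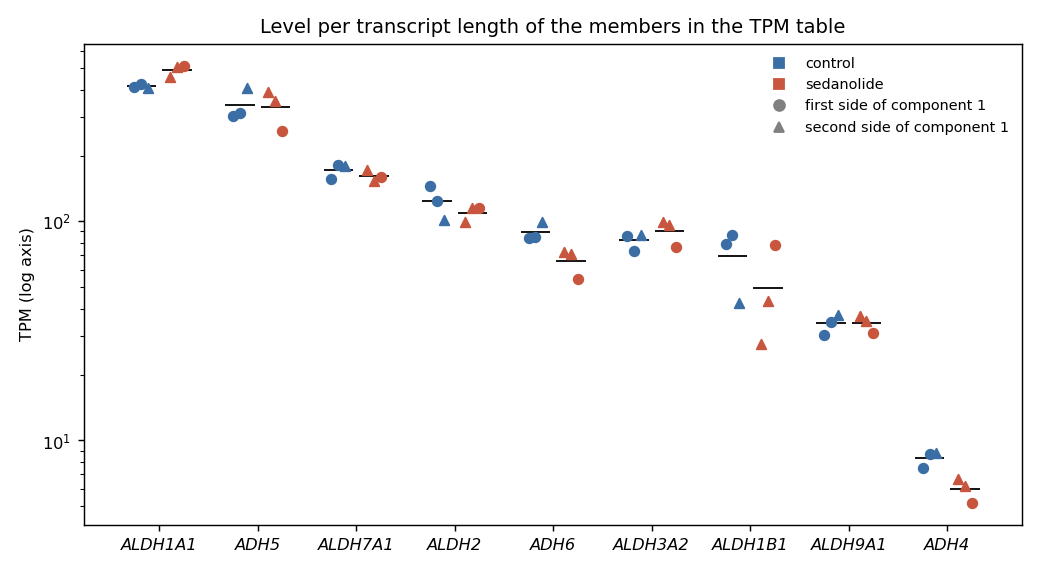
TPM on a log axis of the 9 dehydrogenases that the authors' table holds, ordered by their mean in control cells, with a point for each control (blue) and sedanolide (red) library and a line at each mean. ALDH1A1 is highest in both groups, and the sedanolide points of ADH6 and ADH4 lie below their control points.

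The other 17 aldehyde and alcohol dehydrogenases of the human genome that were examined had 8 genes with enough counts for testing. ADH1A, ADH1B, ADH1C and ADH7, the remaining genes of the cluster on chromosome 4, had at most 3 counts in any library, so that ADH4, ADH5 and ADH6 were the genes of the cluster that were tested. ALDH1A2 and ALDH1A3, which like ALDH1A1 make retinoic acid, had at most 4 and at most 2 counts in a library. None of the 8 was past both thresholds in edgeR's test, and their median log2 fold change was -0.15. An unadjusted p under 0.05 was found for 4 of the 8, and for 11.9% of all genes and reporters tested. The largest differences were those of ALDH1L1 and ALDH3B1. ALDH1L1, the cytosolic 10-formyltetrahydrofolate dehydrogenase, had 42.1, 29.4 and 37.3 CPM in controls 1 to 3 and 73.4, 74.0 and 53.0 CPM in sedanolide 1 to 3. Its groups did not overlap, with a log2FC of 0.88 and a standard error of 0.190 (adjusted p = 0.131 from edgeR), and it was past both thresholds with the side as a term (adjusted p = 0.0272), with DESeq2, without a filter on low counts and without sedanolide 3 (adjusted p = 0.0435). ALDH3B1, a lipid-anchored relative of the ALDH3A enzymes, had 9.91 to 13.8 CPM in control and 6.34 to 8.07 CPM in sedanolide libraries, a log2FC of -0.64 (adjusted p = 0.217 from edgeR). ALDH4A1, the mitochondrial enzyme of proline breakdown, was named after its values were seen because DESeq2 called it. It had 76.4 to 94.4 CPM in control and 47.6 to 62.9 CPM in sedanolide libraries, a log2FC of -0.64 (adjusted p = 0.153 from edgeR).

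Genes of pathways that supply or use the products of these enzymes were read from the same fit. A list of the aryl hydrocarbon receptor, its partners and its targets was read as well. Of 75 genes in 6 lists, 58 were tested and 1 was past both thresholds, NQO1 in the list of the aryl hydrocarbon receptor. Of all genes and reporters tested, 0.362% were higher and 0.312% lower at both thresholds. An unadjusted p under 0.05 from edgeR, counted for each list below, was found for 11.9% of all of them. NQO1, a quinone reductase that also answers to NRF2, had 258 to 320.2 CPM in control and 618 to 708 CPM in sedanolide libraries, a log2FC of 1.21 (adjusted p = 0.0172 from edgeR). Its adjusted p was 0.162 without control 1, 0.0943 without control 2, 0.0689 without sedanolide 1 and 0.162 without sedanolide 2, at log2FC from 1.13 to 1.20, and 0.425 with the replicate block. The other 5 tested genes of that list had log2 fold changes below 0, among them CYP1A1, the best known target of the receptor, at -0.14 (1.38 ± 0.280 against 1.24 ± 0.0915 CPM, SD, n = 3), and AHR itself at -0.41 (adjusted p = 0.674 from edgeR). CYP1A1 was chosen for mention after its values were seen, as a target of the receptor that is known to induce ALDH3A1.

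Of 24 genes of retinoid handling, 14 were tested and none was called, with a median log2 fold change of -0.05 and 2 genes at an unadjusted p under 0.05. The largest differences were in genes at about 1 CPM. RARB, a retinoic acid receptor that is itself a target of retinoic acid, had 13 to 32 counts in control and 34 to 50 counts in sedanolide libraries, a log2FC of 0.75 (adjusted p = 0.348 from edgeR). RDH5, a retinol dehydrogenase, had 30 to 36 counts in control and 18 to 27 counts in sedanolide libraries, a log2FC of -0.80 (adjusted p = 0.379).

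Of 7 genes of ethanol and acetate metabolism, CYP2E1 and ACOT12 were too low to be tested, and none of the other 5 was called. Their median log2 fold change was -0.12, and 2 had an unadjusted p under 0.05. ACSS1 and ACSS3, mitochondrial enzymes that activate acetate and propionate to their CoA esters, had values in opposite directions. ACSS1 had 33.0 to 38.2 CPM in control and 50.9 to 57.1 CPM in sedanolide libraries, a log2FC of 0.62 (adjusted p = 0.0796 from edgeR). ACSS3 had 112 to 124 CPM in control and 74.1 to 80.0 CPM in sedanolide libraries, a log2FC of -0.61 (adjusted p = 0.0721 from edgeR). The groups of both genes did not overlap, and DESeq2 called both. With the side as a term ACSS1 was also past both thresholds (adjusted p = 0.0143 from edgeR), and ACSS3 was not.

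All 10 genes of the formaldehyde and folate list were tested, with a median log2 fold change of 0.27. None was called, and 2 had an unadjusted p under 0.05. The folate enzymes MTHFD2 and MTHFD1L had the largest values, 0.58 (adjusted p = 0.186) and 0.51 (adjusted p = 0.392 from edgeR). MTHFD2 had 114 to 142 CPM in control and 159 to 201 CPM in sedanolide libraries.

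In the list of choline, carnitine and lysine metabolism, 11 of 12 genes were tested and none was called, with a median log2 fold change of 0.01 and 2 genes at an unadjusted p under 0.05. BHMT2 and BHMT, betaine- and methionine-linked methyltransferases, had the largest values. BHMT2 had 12 to 21 counts in control and 47 to 63 counts in sedanolide libraries, a log2FC of 1.39 (adjusted p = 0.0583 from edgeR). It was past both thresholds with DESeq2, with the side as a term and without a filter on low counts. BHMT had 8.99 to 10.5 CPM in control and 11.1 to 13.2 CPM in sedanolide libraries, a log2FC of 0.36 (adjusted p = 0.364).

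All 12 genes of the fatty aldehyde list, the neighborhood of ALDH3A2, were tested and none was called. Their median log2 fold change was -0.15, and 4 had an unadjusted p under 0.05, as did 11.9% of all genes and reporters tested. FAR1, a fatty acyl-CoA reductase, had 10 to 20 counts in control and 4 to 11 counts in sedanolide libraries, a log2FC of -1.42 (adjusted p = 0.264 from edgeR). CYP4F2, a fatty acid hydroxylase, had 12 to 22 counts in control and 8 to 16 counts in sedanolide libraries, a log2FC of -0.88 (adjusted p = 0.386).

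**Figure D5:**
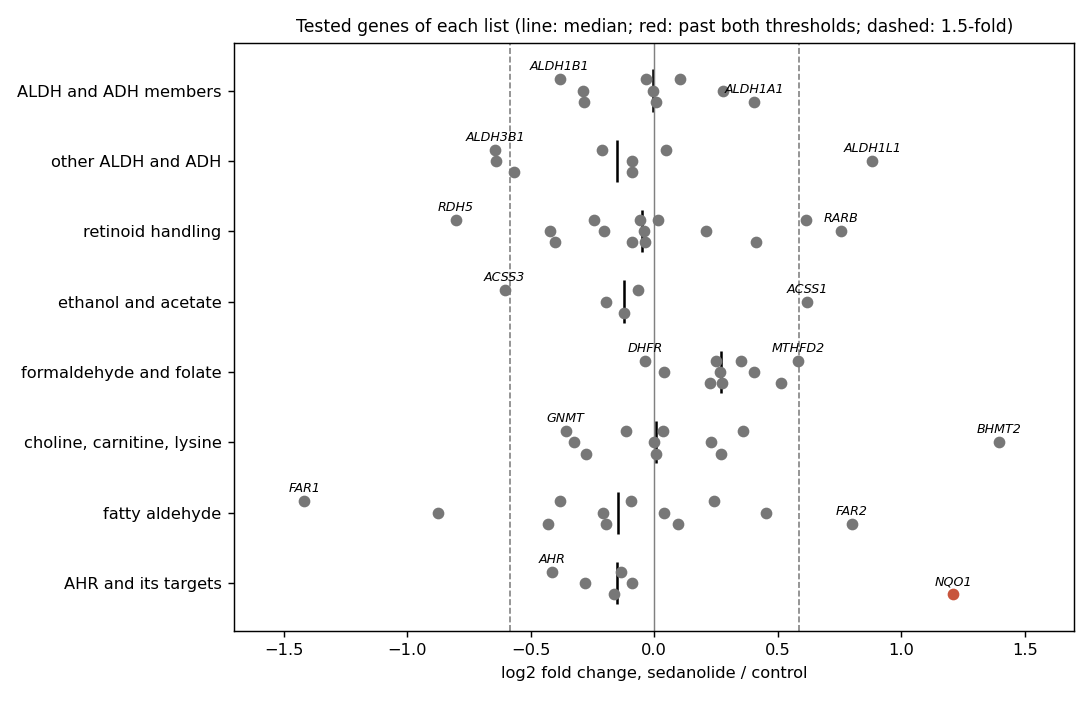
Log2 fold change of sedanolide over control for every tested gene of the 9 dehydrogenases and of the 7 other lists, with the median of each list as a black line, dashed lines at 1.5-fold, and the lowest and the highest gene of each list named. NQO1, in red, is the only gene past both thresholds, and the 9 dehydrogenases lie between -0.38 and 0.40.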

How the data were processed

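The 3 control and 3 sedanolide libraries of RNA-seq were analysed. The authors captured mRNA, prepared directional libraries, sequenced 150 bp paired-end reads, and used FastQC, Trimmomatic, STAR (GRCh38) and RSEM, whose versions and annotation release are not given in the sources used here. The authors deposited expected counts from RSEM without normalization. They also deposited log2(TPM + 1) for 11006 rows, in which the added 1 was read from sums of 988500.3 to 994763.8 TPM per library. Its columns were assigned by the letter and number in their names, and the deviations from the gene means of all 6 were closest to those of the count column of the same library.

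Expected counts were rounded, filtered with filterByExpr (14102 genes and 2 reporters left), scaled by TMM and tested in R 4.3.3 with the robust quasi-likelihood test of edgeR 4.0.16 across all genes. A gene was called past an FDR (Benjamini-Hochberg) of 0.05 together with 1.5-fold. CPM are normalized by TMM, and standard errors and 95% intervals come from the quasi-likelihood fit. The floor for a count of 0 is 3 counts and covers counting error only. limma 3.58.1 was used on the log2(TPM + 1) values as they are, and DESeq2 1.42.0, the tool of the study, as an alternative. The study ran DESeq2 through the iDEP web application and reported fewer genes than DESeq2 called here. The DESeq2 calls given in this text are therefore not those of the study. Other alternatives were other scalings and filters, no fold change threshold, the replicate number or the side of component 1 in the model, leaving out single libraries, and for TPM another added value and filter. Within a group the libraries differed by more than sampling noise (chi-square per degree of freedom from 20.8 to 149). The code was tested on simulated data.

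All 10 dehydrogenases are named with their values. Of each other list, the genes past both thresholds and the 2 with the largest absolute log2 fold change are named, and others are stated as chosen after their values were seen. The dehydrogenases, the lists and the side of component 1 were chosen with earlier results of these data known. All p-values with the side as a term leave that choice out of account. Positions are from GENCODE 44.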

Additional observations from a re-analysis of the deposited data

How the results depend on the processing

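None of the 9 tested dehydrogenases was past both thresholds in edgeR or under any of the 14 alternatives on counts, and none in the log2(TPM + 1) table or its 9 alternatives. ALDH1A1, ALDH3A2, ALDH1B1, ADH4 and ADH6 kept the sign of their log2 fold changes throughout. Values near 0 changed sign under some settings. ADH5 was at -0.038 with library size only, -0.15 with the side as a term, and between -0.12 and 0.16 with each library left out. ALDH7A1 was at 0.010 without a filter and between -0.081 and 0.11 with each library left out. ALDH2 was at 0.00046 with the side as a term and between -0.11 and 0.044 with each library left out, and ALDH9A1 was at -0.022 with the side as a term. In log2(TPM + 1), ALDH9A1 was between -0.077 and 0.077 and ADH5 between -0.16 and 0.14 with each library left out. The cause of these changes was not tested.

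Of the other dehydrogenases, 2 were past both thresholds with DESeq2, 1 without a filter, 1 with the side as a term, and 0 to 1 with each library left out. Of the linked pathway genes, 4 were past them with DESeq2, 2 without a filter, 3 with the side as a term, 0 with the replicate block, and 0 to 1 with each library left out. These settings also changed the number called over all genes. DESeq2 called 328 of 14104, the fit without a filter 158 of 26457 and the side as a term 381 of 14104, where the main fit called 51 higher and 44 lower. NQO1 was not called without control 1, control 2, sedanolide 1 or sedanolide 2. Over all genes, 0 were called without control 1 or without sedanolide 2 (1067 and 889 at an unadjusted p under 0.05) against 136 without sedanolide 3. The replicate block called 0 of all genes, with 772 at an unadjusted p under 0.05. The replicate number gave no pairing, as the deviations of libraries with the same number had correlations from -0.73 to -0.13. ALDH3A1 did not pass the filter on low counts, and no limit of detection was measured for the other genes.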
